A study of Rattus norvegicus with 6 samples.

Results

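The genes described here serve the response of the kidney inner medulla (IM) to high tonicity: the regulator Nfat5, the enzymes and transporters that let cells hold organic osmolytes, and the urea transporters. The 10 genes Nfat5, Akr1b1, Sord, Slc5a3, Slc6a6, Slc6a12, Slc14a1, Slc14a2, Gdpd5 and Pnpla6 were chosen by name, and a row was taken when the text before the first colon of its name was exactly the gene's symbol. This found 8 of the 10 among the 27321 features of the table, and all 8 passed the filter on low values given below. Slc14a2 and Gdpd5 were not analysed here, and a feature with another name beside Slc14a1 is given with the urea transporters. RNA came from the terminal part of the IM (IM tip) of male Sprague-Dawley rats, 3 months old and about 150 g. STZ rats had been given streptozotocin (STZ), a toxin of the insulin-producing beta cells, at 62.5 mg/kg into the tail vein. Control rats had been given vehicle, and IM was taken 15 days after the injection. STZ-treated rats lack insulin, so the model is one of insulin-deficient diabetes. There are 3 libraries per group, numbered 1 to 3, which the labels do not state to be separate rats, so p-values measure the spread between these libraries, which may be in part technical.

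Cells of the IM live in an interstitium that is rich in sodium chloride and urea, and they balance it by holding sorbitol, myo-inositol, betaine, taurine and glycerophosphocholine (GPC), small solutes that do not disturb proteins. NFAT5, also called TonEBP, is the transcription factor that hypertonicity activates. It is known to drive aldose reductase (Akr1b1), which makes sorbitol from glucose, and the carriers for myo-inositol (Slc5a3), betaine (Slc6a12) and taurine (Slc6a6). Urea is carried by UT-A transporters in the collecting duct and thin limb and by UT-B (Slc14a1) in the descending vasa recta and in red cells.

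NFAT5 acts through the tonicity enhancer (TonE), so the start regions of the 8 genes were searched for it. RefSeq windows on GRCr8, from 250 bases before to 50 bases after the start, were at hand for 6 of them: Sord, Slc5a3, Slc6a6, Slc6a12, Slc14a1 and Pnpla6. The core TGGAAA and the 11-base TonE consensus were each searched on both strands. TGGAAA was present in 1 of the 6 windows, that of Slc6a6, and in 22.7% of all 33469 windows of this length. The TonE consensus was present in 2 of the 6, those of Slc6a6 and Pnpla6, and in 24.4% of all windows. In both genes the match was on the opposite strand, at bases 90 to 100 of the Slc6a6 window and 165 to 175 of the Pnpla6 window, and the TGGAAA of Slc6a6 lies inside its TonE match. These windows are shown because they are the ones with a match. They are the plus strand of chr4:125752252-125752551 (Slc6a6) and chr12:6372061-6372360 (Pnpla6), and the capitals mark the TonE match.
Slc6a6: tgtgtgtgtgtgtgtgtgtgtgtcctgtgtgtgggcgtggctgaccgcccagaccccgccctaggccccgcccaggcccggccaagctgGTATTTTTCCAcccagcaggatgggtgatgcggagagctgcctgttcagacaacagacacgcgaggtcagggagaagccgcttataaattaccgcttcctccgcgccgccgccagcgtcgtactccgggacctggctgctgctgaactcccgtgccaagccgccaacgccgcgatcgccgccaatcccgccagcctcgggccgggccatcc
Pnpla6: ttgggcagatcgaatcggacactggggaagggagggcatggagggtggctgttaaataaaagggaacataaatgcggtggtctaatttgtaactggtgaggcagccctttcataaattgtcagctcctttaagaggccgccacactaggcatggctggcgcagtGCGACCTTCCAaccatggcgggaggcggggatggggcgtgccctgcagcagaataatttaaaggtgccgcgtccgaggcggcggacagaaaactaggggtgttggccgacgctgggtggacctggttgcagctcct
A match is a run of letters and not a measured binding site, and elements farther from the start lie outside these windows.

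Reads on features numbered between 3412311 and 5575171 per library, and the values used are normalized counts, the reads of a feature divided by the size factor of its library. Sequencing lane 3 held all control libraries, and lanes 7, 6 and 8 held STZ replicates 1, 2 and 3, so lane and diabetes cannot be told apart. Markers of the labelled tissue were present: the 9 collecting duct principal cell markers found summed to 33025 to 54889 normalized counts in control and 42955 to 82012 in STZ libraries. None of them passed in the limma fit given below, and their median log2 fold change, STZ over control, was 0.40. Markers are counted as lower or higher at an adjusted p under 0.05 in that fit, where 0.927% of all features were lower in STZ rats and 1.17% higher. Of the intercalated cell markers, 5 of 6 tested were lower in STZ rats (summed 1348 to 2855 in control and 541 to 629.5 in STZ libraries), as were 2 of 3 thick limb markers (1103 to 1894 and 212 to 599). Urothelial markers were higher for 2 of 5 tested, Upk3a and Upk1b (85.4 to 132 and 440.1 to 517). Upk3a, at 332, 367 and 333 in STZ replicates 1, 2 and 3, made up most of the STZ sum. Upk1a, Upk2 and Upk3b did not pass. In bulk tissue, fewer cells of a type and less RNA per cell cannot be told apart.

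None of the 8 genes differed between STZ and control rats at an adjusted p under 0.05 in the fit made across 13486 features whose mean normalized count reached 5 (limma on log2(normalized count + 1), Benjamini-Hochberg adjustment). In the same fit 2.10% of all features passed. At an unadjusted p under 0.05 there were 2 of the 8, Slc14a1 and Slc5a3, against 14.7% of all features. By edgeR on the recovered reads none passed and by DESeq2 these same 2 did, against 2.13% and 4.43% of all features. The log2 fold change, STZ over control, was above 0 for 4 genes and below 0 for 4, with a median of −0.02, and the median over all features was 0.006. The 3 STZ values lay wholly on one side of the 3 control values for 2 genes, again Slc14a1 and Slc5a3, a share of 25% beside 20.3% of all features tested (10.1% higher and 10.3% lower in STZ rats). After quantile normalization 1 of the 8 passed, Slc14a1, beside 3.87% of all features, and so it did with the replicate number as a block, beside 4.16%.

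**Figure D1:**
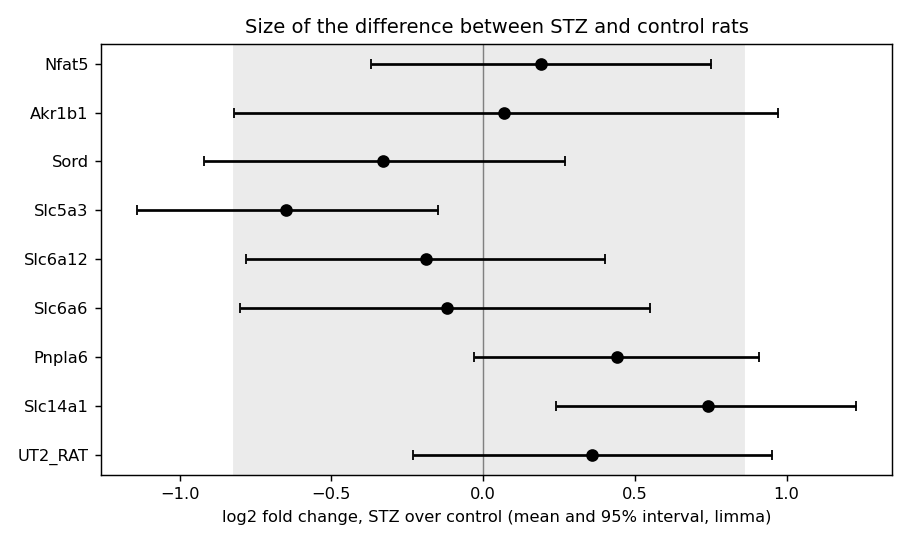
The x axis is the log2 fold change, STZ over control, with its 95% interval from limma (n = 3 libraries per group), and each line is a gene. The grey band runs from the 5th to the 95th percentile of all features tested, −0.82 to 0.86. The interval excluded 0 for Slc14a1 (0.24 to 1.23) and Slc5a3 (−1.14 to −0.15) before adjustment for multiple testing.

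Nfat5, on chromosome 19 of rn4 from 37154325 to 37242191, read 3032, 1982 and 2884 normalized counts in control libraries 1, 2 and 3, and 3878, 2997 and 2207 in the diabetic ones. STZ replicate 1 was the highest library and control replicate 2 the lowest, and the groups overlapped. The means were 2633 ± 569 (control) and 3028 ± 836 (STZ) (SD, n = 3 per group), a log2 fold change of 0.19 (limma adjusted p = 0.844, SE 0.25). The 95% interval of the log2 fold change, −0.37 to 0.75, allows for a transcript level between 0.773 and 1.68 times that of control rats. Single libraries decided its sign, since it was −0.01 without STZ replicate 1 and −0.004 without control replicate 2. Tonicity is known to act on NFAT5 largely through its movement into the nucleus, which transcript counts do not measure.

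The features whose values followed those of Nfat5 most closely over the 6 libraries were Plcl1, a feature that merges Golph3 with ENSRNOG00000039104, and SIA7C_RAT. The root mean square difference of their log2 values, each set to its own mean, was 0.0815, 0.0929 and 0.112, and Nfat5 itself varied around its mean by 0.319 on this scale. Plcl1 had 63.6, 44.2 and 66.8 normalized counts in control libraries, against 78.0, 69.2 and 51.2 for STZ replicates 1, 2 and 3. The library with the highest Nfat5 value, STZ replicate 1, had the second-lowest values of Akr1b1, Slc5a3 and Slc6a12. The library with the lowest Nfat5 value, control replicate 2, had the highest values of Slc5a3 and Slc6a6 and the second-highest of Slc6a12. Akr1b1 in control replicate 2 (222487) and Slc6a6 in STZ replicate 1 (32.5) lay within the range of the other libraries. No association with Nfat5 was tested.

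**Figure D2:**
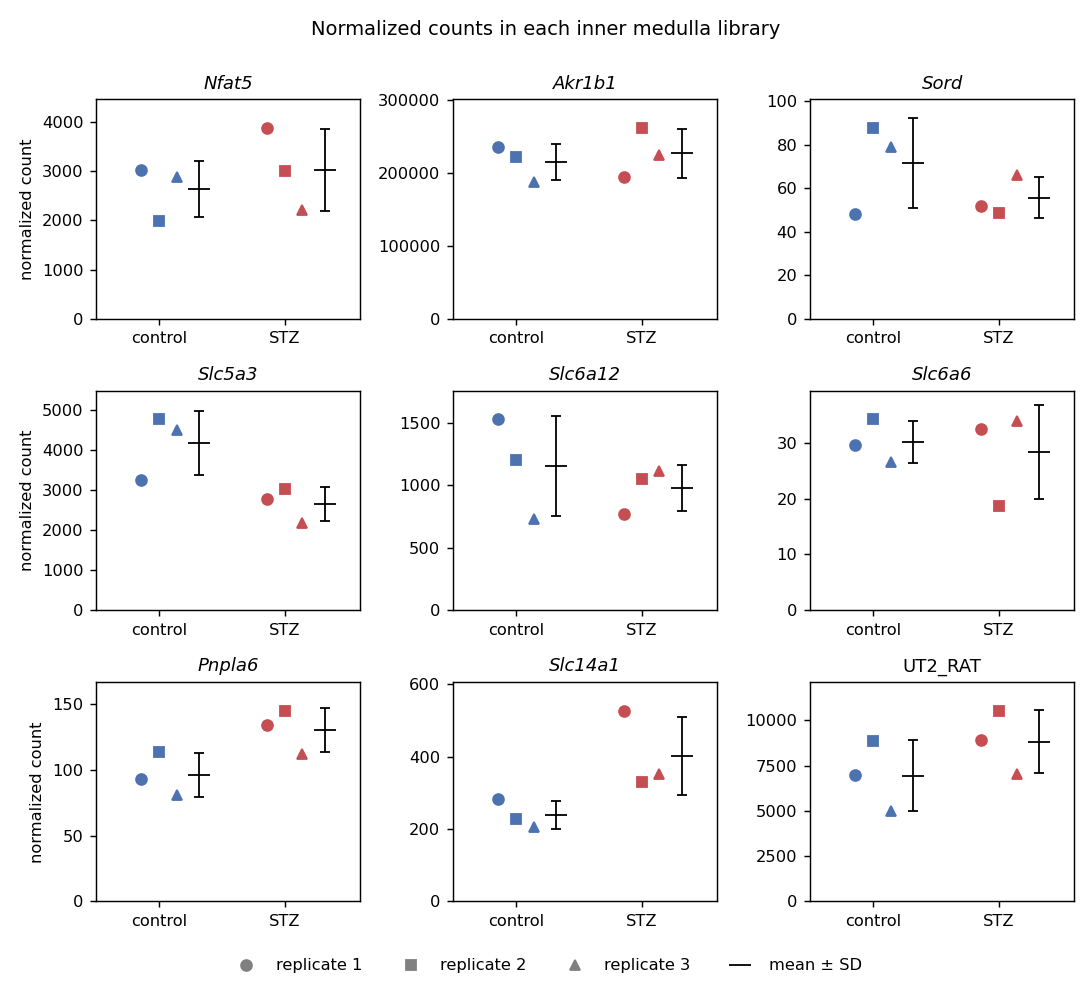
Normalized counts (y axis, from 0, a scale of its own per panel) of the 8 genes and of UT2_RAT in the 3 control and 3 STZ libraries, with the mean ± SD to the right of each group. Slc5a3 and Slc14a1 are the 2 panels in which the groups do not overlap, with Slc5a3 at 2181 to 3009 in STZ and 3245 to 4754 in control libraries.

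Akr1b1, aldose reductase, took more reads than any other feature in all 6 libraries, before any division by length: 4.93%, 5.23% and 4.93% of the reads on features for control libraries 1, 2 and 3, against 4.18%, 5.91% and 5.65% for STZ libraries 1, 2 and 3. It lies on chromosome 4 from 61645437 to 61659530. Its normalized counts by replicate were 235588, 222487 and 187354 without diabetes and 194494, 261675 and 224775 with it. Both the lowest library, control replicate 3, and the highest, STZ replicate 2, lay apart from the rest of their own group, and the groups overlapped. The means were 215143 ± 24942 and 226981 ± 33645 (SD, n = 3 per group), a ratio of 1.06. Its log2 fold change was 0.07 (limma adjusted p = 0.970, SE 0.41; exact permutation test, two-sided, p = 0.7). The replicate SDs were 11.6% of the mean in control and 14.8% in STZ rats. The interval of the fold, 0.565 to 1.96, comes from a fit that shares variance among features of like count and is wide beside those SDs.

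Few reads lay in features that merge Akr1b1 with another gene: the 7 such features summed to at most 4.10 normalized counts in any library. Akr1b8, an aldo-keto reductase near it on chromosome 4, had 2.29% to 3.07% of the Akr1b1 value in control and 2.40% to 3.01% in STZ libraries. It had 6089 ± 1569 normalized counts in control libraries, against 6388 ± 1564 for STZ rats (log2 fold change 0.07, SE 0.27, adjusted p = 0.955). Akr1b10, another relative there, had 101 ± 19.4 and 118 ± 54.5 (log2 fold change 0.14, adjusted p = 0.918). Values of both are uncertain, since near-identical stretches can move reads between these genes or drop them from the uniquely mapped set.

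Sord, sorbitol dehydrogenase, turns sorbitol into fructose. It lies on chromosome 3 from 109016818 to 109048444 and had 48.2, 87.7 and 79.0 normalized counts in control libraries, against 52.0, 48.5 and 66.3 for STZ replicates 1, 2 and 3. Control replicate 1 was the lowest library of all and the other two control libraries the highest, so the groups overlapped. The means were 71.6 ± 20.8 and 55.6 ± 9.42 (SD, n = 3 per group), with a log2 fold change of −0.33 (limma adjusted p = 0.668, SE 0.27). These values rest on 47 to 115 reads per library.

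The transcripts of the enzymes that make and remove sorbitol were also compared within each library. In their ratio the size factor drops out, except through the 1 added to each normalized count. The log2 ratio of Akr1b1 to Sord was 12.23, 11.29 and 11.19 in control and 11.84, 12.37 and 11.71 in STZ replicates 1, 2 and 3. Control replicate 1 lay among the STZ values. The difference of means was 0.40 on the log2 scale (11.57 ± 0.57 against 11.97 ± 0.35, n = 3 per group; exact permutation test, two-sided, p = 0.3, and 0.6 adjusted over the 2 ratios compared). The smallest p that 3 libraries against 3 allow is 0.1. The ratio of Pnpla6 to Gdpd5 was not analysed.

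Slc5a3, the sodium-coupled carrier that brings myo-inositol into the cell, gave normalized counts of 3245, 4754 and 4496 without diabetes (replicates 1, 2 and 3) and of 2761, 3009 and 2181 with it. All 3 STZ libraries lay below all 3 control libraries, by the narrow gap between 3009 and 3245. The means were 4165 ± 807 and 2651 ± 425 (SD, n = 3 per group), a ratio of 0.636. By limma the log2 fold change was −0.65 (SE 0.22, 95% interval −1.14 to −0.15), with an unadjusted p of 0.015 and an adjusted p of 0.188. The exact permutation p was 0.1, the smallest possible. DESeq2 on the recovered reads gave an adjusted p of 0.0406, and over 18 alternatives it ran from 0.0406 to 0.515, under 0.05 in 1. The feature spans 2435 bases on chromosome 11, from 32063274 to 32065708, and only reads within it were counted. Slc5a3 is also a gene of the thick limb, whose markers were also lower in STZ rats. These markers summed to 1103 to 1894 normalized counts in control libraries, against 212 to 599 in STZ libraries. Of 3 tested 2 were lower, beside 0.927% of all features, and none of the 4 found was at or under 3 reads throughout. Their part in the Slc5a3 difference was not tested.

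Slc6a12, the betaine carrier, lies on chromosome 4 from 157781291 to 157800038. It had 1529.6, 1201 and 732 normalized counts in control libraries, against 771, 1051 and 1119 for STZ replicates 1, 2 and 3. Control libraries held both the highest and the lowest value, and the STZ values lay between them. The means were 1154 ± 401 and 980.5 ± 185 (SD, n = 3 per group), with a log2 fold change of −0.19 (SE 0.27, 95% interval −0.78 to 0.40, adjusted p = 0.854 by limma). Without control replicate 1 it was 0.05 and without control replicate 3 it was −0.48, so that single control libraries set its sign and size.

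Slc6a6, the taurine carrier, was a low gene in these libraries, with 19 to 45 reads. It lies on chromosome 4 from 125875816 to 125945779, and its start window is the one with the TGGAAA match shown above. It had 29.7, 34.3 and 26.7 normalized counts in control libraries, against 32.5, 18.8 and 34.1 for STZ replicates 1, 2 and 3. STZ replicate 2 was the lowest and the other libraries were close together. The log2 fold change was −0.12 (SE 0.31, 95% interval −0.80 to 0.55, adjusted p = 0.928 by limma), and 0.14 without STZ replicate 2. The log2 ratio of Slc6a12 to Slc6a6 was 5.15 ± 0.46 (control) and 5.08 ± 0.61 (STZ) (SD, n = 3 per group; exact permutation test, two-sided, p = 0.9).

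Pnpla6, neuropathy target esterase, makes GPC by removing the remaining fatty acid from lysophosphatidylcholine. It lies on chromosome 12 from 2610783 to 2639853 and had 93.3, 114 and 81.3 normalized counts in control libraries, against 134, 145 and 112 for STZ replicates 1, 2 and 3. STZ libraries were higher except that STZ replicate 3 lay just below control replicate 2. The means were 96.3 ± 16.8 and 131 ± 16.7 (SD, n = 3 per group), a ratio of 1.35. This was a log2 fold change of 0.44 (SE 0.21, 95% interval −0.03 to 0.91, adjusted p = 0.376 by limma), between 0.33 and 0.57 with each library left out. Its relative Pnpla7 had 153, 141 and 163 normalized counts in control libraries, against 80.8, 128 and 113 for STZ replicates 1, 2 and 3, a log2 fold change of −0.52 (adjusted p = 0.286). Pnpla7 was named after its values were seen.

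Slc14a1 (UT-B) had the largest log2 fold change of the 8 genes. It lies on chromosome 18 from 75024199 to 75044556 and gave normalized counts of 282, 227 and 207 without diabetes (replicates 1, 2 and 3) and of 527, 331 and 351 with it. All 3 STZ libraries were above all 3 control libraries, and STZ replicate 1 was well above the other two. The means were 238 ± 38.9 and 403 ± 108 (SD, n = 3 per group), a ratio of 1.69. The log2 fold change was 0.74 (SE 0.22, 95% interval 0.24 to 1.23), with an unadjusted p of 0.00718 and an adjusted p of 0.134 by limma. The exact permutation p was 0.1, the smallest possible. The adjusted p was 0.0417 by DESeq2 on the recovered reads and 0.0451 after quantile normalization, and over 18 alternatives it ran from 0.0361 to 0.381, under 0.05 in 3, of which the replicate block was the lowest. Single libraries moved the size, since without STZ replicate 1 the log2 fold change was 0.53 (adjusted p = 0.381 by limma).

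The UT-B transporter is known, among other cells, from the vasa recta endothelium and from red cells, and markers of both were set beside Slc14a1. Of the 5 endothelial markers tested, 2 were lower in STZ rats and 1 was higher, beside 0.927% and 1.17% of all features. Their sum was 6219.6 to 8009 normalized counts in control libraries, against 3264 to 3461 in STZ libraries. Emcn, which makes up most of that sum, had 6520.1, 5184 and 4827 in control and 2246, 2003 and 2037 in STZ replicates 1, 2 and 3 (adjusted p = 0.00679 by limma). Plvap, of fenestrated vessels, was also lower (adjusted p = 0.029), and Vwf was higher, at 26.7 to 64.6 in control and 103 to 242 in STZ libraries (adjusted p = 0.0264). The pan-endothelial genes Pecam1 and Cdh5 did not pass (adjusted p = 0.972 and 0.163 by limma). Cdh5 was lower in STZ libraries without overlap, at 259 to 309 in control and 183 to 219.6 in STZ libraries. The Pecam1 feature spans only 1010 bases. The erythroid gene Hbb had 1723 to 3857 in control and 819 to 1999.7 in STZ libraries (log2 fold change −0.85, adjusted p = 0.297 by limma). Slc25a37, the other erythroid marker found, was low, at 2.05 to 9.15 and 3.71 to 8.03 (log2 fold change 0.27, adjusted p = 0.93 by limma). No endothelial or erythroid marker that was found stayed at or under 3 reads in all libraries. Of the 5 urothelial markers tested, 2 were higher, beside 1.17% of all features, with sums of 85.4 to 132 in control and 440.1 to 517 in STZ libraries. Most of that STZ sum was Upk3a. The part of these cell types in the Slc14a1 difference was not tested.

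**Figure D3:**
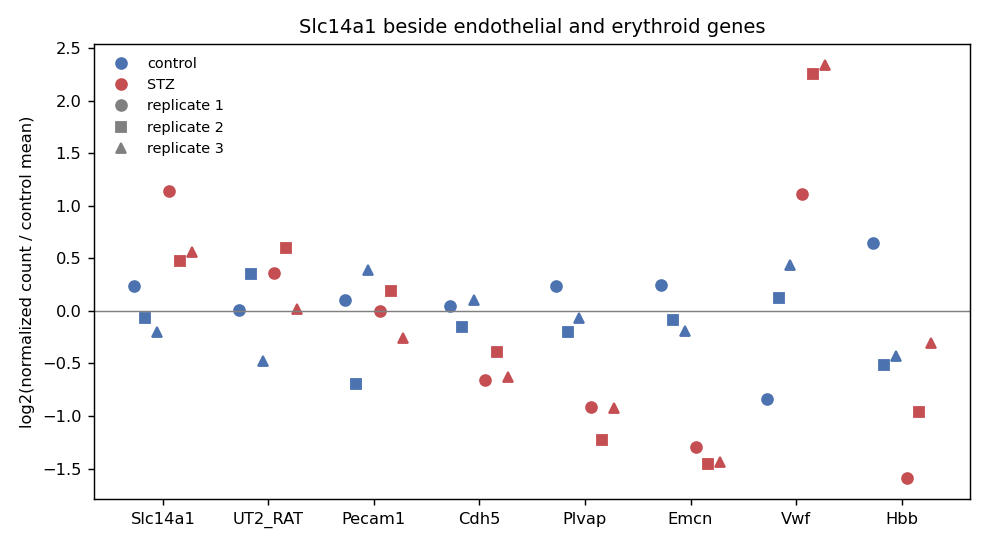
Each point is a library, placed on the y axis by the log2 of its normalized count over the control mean of that gene, in control and STZ replicates 1 to 3. Slc14a1 lies above its control mean in the 3 STZ libraries, whereas Plvap and Emcn lie below theirs and Vwf above.

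The feature next to Slc14a1 on chromosome 18, from 75071414 to 75252357, is listed as UT2_RAT, the form that UniProt entry names take, and the entry of that name is rat urea transporter 2. On RefSeq's GRCr8 the gene beside Slc14a1 is Slc14a2, which encodes the UT-A transporters, but the table does not pair the 2 names, so the feature was not counted among the 10 genes. It was named after its values were seen. It had 6973, 8880.1 and 5008 normalized counts in control libraries, against 8911, 10528 and 7046 for STZ replicates 1, 2 and 3. The groups overlapped, since STZ replicate 3 lay below control replicate 2. The means were 6954 ± 1936 and 8828 ± 1742 (SD, n = 3 per group), with a log2 fold change of 0.36 (SE 0.27, 95% interval −0.23 to 0.95, adjusted p = 0.614 by limma). Within each group replicate 2 was the highest and replicate 3 the lowest, unlike Slc14a1, whose highest library in both groups was replicate 1.

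A wider list of 75 genes of tonicity and osmolyte handling had 63 matches by exact name, of which 60 were tested. Of these, 3 passed at an adjusted p under 0.05 (5%, beside 2.10% of all features): Csad was higher in STZ rats, and Slc44a1 and Slc22a2 were lower, where 1.17% of all features were called higher and 0.927% lower. The groups did not overlap for 11 of the 60, 8 higher and 3 lower in STZ rats, a share of 18.3% beside 20.3% of all features. The median log2 fold change of the 60 was 0.13.

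Csad makes hypotaurine, the precursor of taurine, and had 64.6, 60.3 and 79.0 normalized counts in control libraries, against 141, 131 and 115 for STZ replicates 1, 2 and 3. All STZ libraries were above all control libraries, and the log2 fold change was 0.92 (limma adjusted p = 0.0489, SE 0.21). Cdo1, which acts before Csad in that pathway, had 106 ± 36.6 and 179 ± 88.3 normalized counts (adjusted p = 0.454), and Slc6a13, a carrier of GABA and taurine, lay at 2.05 to 7.79 and 4.64 to 6.92 (adjusted p = 0.919). Of the 3 taurine genes tested 1 passed, beside 2.10% of all features.

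Slc44a1, a choline carrier, had 304, 292 and 285 normalized counts in control libraries, against 132, 191 and 163 for STZ replicates 1, 2 and 3. The groups were well apart, and the log2 fold change was −0.87 (limma adjusted p = 0.0475, SE 0.19). Slc22a2, an organic cation carrier that takes up choline, had 29.7, 54.2 and 85.7 in control and 15.8, 12.9 and 19.1 in STZ replicates 1, 2 and 3 (log2 fold change −1.66, SE 0.38, adjusted p = 0.0499). It is best known from the proximal tubule, of whose markers none of 3 tested passed, and whose 4 markers found summed to 81.0 to 178 in control and 71.2 to 99.4 in STZ libraries. Their part in this difference was not tested. In all, 2 of the 13 choline, betaine and GPC genes tested passed, beside 2.10% of all features. Among the rest, Aldh7a1, which forms betaine from betaine aldehyde, had 696 ± 104 and 1094 ± 191 normalized counts without overlap (log2 fold change 0.65, adjusted p = 0.138 by limma, 0.0331 by DESeq2 and 0.0409 after quantile normalization), and Lypla1, a lysophospholipase, had 429 ± 129.6 and 409 ± 89.9 (adjusted p = 0.970).

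These 3 calls lie close to the threshold. Leaving out a single library ended the call of Slc44a1 in all 6 cases (adjusted p from 0.0598 to 0.173). It ended that of Slc22a2 in 5 cases (up to 0.197), all but control replicate 1 (0.0235), and that of Csad in 5 (up to 0.197), all but control replicate 3 (0.0355). Without the trend all 3 calls were lost (0.183 for Slc44a1, 0.179 for Slc22a2 and 0.169 for Csad). Slc22a2 and Csad were also lost at a minimum mean of 1 (0.0593 and 0.0565) and with equal library totals (0.0846 and 0.0633), and Slc22a2 with pseudocounts of 0.5 and 5 (0.0501 and 0.0512). By edgeR and DESeq2 all 3 passed.

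No gene passed in the remaining lists by limma. Among 13 genes listed as regulators of NFAT5, the adjusted p was at least 0.125, and the median log2 fold change was 0.26. Xpo1, a nuclear exporter for which NFAT5 is a cargo, had 404, 209.8 and 382 normalized counts in control libraries, against 554, 839.7 and 499.9 for STZ replicates 1, 2 and 3, without overlap (log2 fold change 0.95, SE 0.28, adjusted p = 0.125 by limma). By DESeq2 its adjusted p was 0.0269, and by edgeR 0.126. Mapk14, the p38 kinase, had a log2 fold change of 0.36 (adjusted p = 0.577), and Nup88, a nuclear pore protein, one of −0.16 (adjusted p = 0.804).

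Of 10 genes known to be induced by hypertonicity in the medulla none had groups that did not overlap, beside 20.3% of all features. Cryab, a small heat shock protein of the inner medulla, had 34987 ± 6431 normalized counts in control libraries, against 30435 ± 4258 for STZ rats (log2 fold change −0.19, SE 0.28, adjusted p = 0.860). Sgk1, a kinase that acts on sodium transport, had 19471 ± 2953 and 22915 ± 6475 (log2 fold change 0.20, adjusted p = 0.859), but −0.09 after quantile normalization. S100a4, a calcium-binding protein, had 5907 ± 1769 and 4613 ± 431 (log2 fold change −0.32, adjusted p = 0.648). The median log2 fold change of the 10 was 0.04.

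For myo-inositol, Isyna1, which makes it from glucose 6-phosphate, had 761 ± 117 normalized counts in control libraries, against 586 ± 96.3 for STZ rats (log2 fold change −0.38, adjusted p = 0.429). Impa1, the phosphatase of the last step, had 507 ± 139.8 and 498 ± 82.4 (log2 fold change −0.00, adjusted p = 0.999). Miox, which breaks inositol down and is a gene of the proximal tubule, had 66.6, 96.9 and 115 in control and 70.6, 37.6 and 40.2 in STZ replicates 1, 2 and 3 (log2 fold change −0.92, SE 0.30, adjusted p = 0.160). Besides Akr1b8 and Akr1b10, the polyol genes included Akr1a1, aldehyde reductase, with 3059 ± 541 and 4199.9 ± 853 (log2 fold change 0.45, adjusted p = 0.404).

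Among genes that form urea, Arg2, the mitochondrial arginase, had 956 ± 159.6 normalized counts in control libraries, against 1090.1 ± 185 for STZ rats (log2 fold change 0.19, adjusted p = 0.778). Agmat, agmatinase, had 18.7 ± 3.28 and 13.2 ± 5.47 (adjusted p = 0.629), and Arg1, the liver arginase, had 5.75 ± 4.66 and 9.52 ± 4.22 (adjusted p = 0.698). Another list held 7 genes tied to the release of osmolytes when cells swell, not all of them genes of the channel itself. Their log2 fold changes ran from 0.02 to 0.89, all above 0 and none past the threshold. They included Clns1a (0.02, but −0.01 with equal library totals), Lrrc8d (0.10) and Clcn3 (0.20), with adjusted p-values of 0.979, 0.889 and 0.836. The groups did not overlap for 2 of the 7, a share of 28.6% beside 20.3% of all features. These were Lrrc8a (0.89, adjusted p = 0.489 by limma) and Lrrc8b (0.79, adjusted p = 0.160), both higher in STZ rats and named after their values were seen. Lrrc8a was low, at 3.05 to 8.20 normalized counts in control and 9.29 to 15.8 in STZ libraries. Lrrc8b lay at 58.0 to 61.5 and 73.3 to 144.

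**Figure D4:**
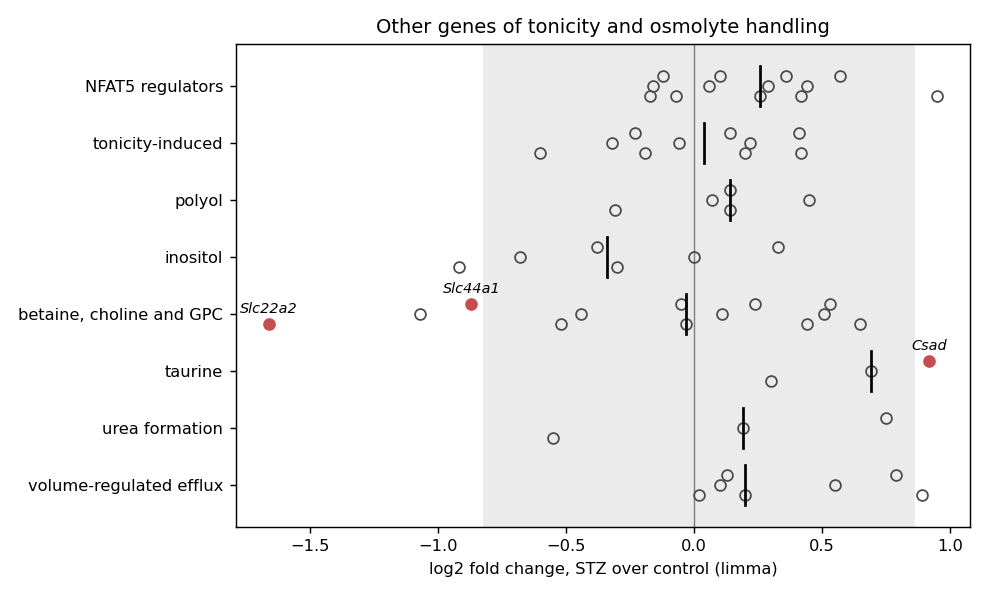
The log2 fold change, STZ over control, of the 60 genes tested (x axis) in 8 lists (y axis), with red points for an adjusted p under 0.05 by limma and a black bar at each list's median. The grey band spans the 5th to the 95th percentile of all features tested. Slc22a2 (−1.66), Slc44a1 (−0.87) and Csad (0.92) are the 3 genes that passed.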

How the data were processed

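cDNA was made from IM tip mRNA with a PCR-based kit and sequenced on a HiSeq2000. Per the submitters' processing notes and the methods, alignment by the authors was to rn4 (STAR 2.3.1t), followed by counting of uniquely mapped reads per gene and scaling by DESeq 1.16.0. Which program counted, and whether by strand, is not given in the sources used here. The deposited signal is the read count of each feature divided by the size factor of its library. All values (100.0%, within 0.01 read) were whole multiples of a single step per library, which gave back whole reads. Of the features, 3247 merge several genes. The intervals are those of limma and rest on the spread between libraries. The floor of 3 reads covers counting error only, since PCR reads are not independent molecules.

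The main test was limma 3.58.1 (R 4.3.3) with an intensity trend, on log2(normalized count + 1), which understates the change of low genes, for features with a mean of at least 5. Single genes and within-library ratios were compared by exact permutation tests. The members, gene lists and tests were chosen with earlier results of these data known. Named genes are the members, the pathway genes that passed, and, in each list with fewer than 5 such genes, the 3 with the highest mean. The genes nearest to Nfat5 were ranked by root mean square difference. The alternatives were other pseudocounts (0.5, 5), other minimum means (1, 20), no filter, equal totals, quantile normalization, limma without trend or robust, edgeR 4.0.16 and DESeq2 1.42.0 on the recovered reads, the replicate block and each library left out. The fits were tested on simulated data. Figures used Python 3.11.15 and matplotlib 3.10.9.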

Additional observations from a re-analysis of the deposited data

How the results depend on the processing

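Of the 8 genes, none passed with any library left out, and the number that passed was 1 after quantile normalization (Slc14a1, log2 fold change 0.74), 2 with DESeq2 (Slc14a1, 0.76, and Slc5a3, −0.66) and 0 in the other alternatives without the replicate block. Quantile normalization sets Akr1b1 to 0 by construction, since it has the most reads in every library. With each library left out the log2 fold change ran from −0.01 to 0.40 for Nfat5, −0.03 to 0.18 for Akr1b1, −0.27 to 0.14 for Slc6a6, −0.48 to 0.05 for Slc6a12, 0.53 to 0.86 for Slc14a1 and −0.82 to −0.51 for Slc5a3. It changed sign also for Impa1 (−0.21 to 0.20), Lypla1 (−0.23 to 0.18), Slc6a13 (−0.14 to 0.43), Clns1a (−0.07 to 0.14), Clcn3 (−0.04 to 0.45), Akr1b8 (−0.16 to 0.28) and Akr1b10 (−0.20 to 0.47), and for the log2 ratio of Slc6a12 to Slc6a6 (−0.39 to 0.21). Under other scalings the sign changed for Sgk1 (−0.09) and Impa1 (0.003) with quantile normalization and for Clns1a (−0.01) with equal totals. The median log2 fold change of all features was 0.006, and −0.009 and −0.023 under these scalings.

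The count of all features that passed was 283, and 522 with quantile normalization, 31 without the trend, 597 with DESeq2 and 86 to 341 with each library left out. The count of pathway genes was 3, and 1 at a minimum mean of 1, 1 with equal totals, 0 without the trend, 5 with DESeq2 (Xpo1 and Aldh7a1 in addition) and 0 to 2 with each library left out. The causes were not tested.

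Libraries of both groups carry the numbers 1 to 3. Deviations of same-numbered libraries correlated at r = 0.395, −0.061 and 0.323 across 9315 features. Differently numbered libraries were not correlated, so these values do not settle whether the numbers pair the libraries. With the replicate block 561 features and 1 of the 8 genes passed (Slc14a1, log2 fold change 0.74, adjusted p = 0.0361 by limma), and the paired differences of the log2 ratios averaged 0.40 for Akr1b1 to Sord and −0.07 for Slc6a12 to Slc6a6 (exact sign-flip tests, p = 0.5 and 1).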
